A study of Homo sapiens with 6 samples.

Results

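The 10 genes described here encode the main histone acetyltransferases, EP300, CREBBP, KAT2A, KAT2B, KAT5, KAT6A, KAT6B, KAT7, KAT8 and HAT1. They were chosen by symbol, as the rows of the deposited expression table whose Ensembl identifiers carry these names in GENCODE release 29, and make up 10 of its 32364 genes. Expression was measured by mRNA sequencing in Kasumi-1, a human acute myeloid leukemia cell line with a fusion of RUNX1 and RUNX1T1 (AML1-ETO). One group was 3 libraries of control cells, kept for 48 h with the solvent DMSO per the methods. The other was 3 libraries of cells incubated for 48 h with 0.5 µM I13, an inhibitor of histone deacetylases. All libraries came from this 1 cell line. A legend of the study calls its sequencing figures representative of 3 independent experiments and does not say which experiment each library came from. The labels only number the libraries and tie none to an experiment, so the p-values measure the spread between these libraries.

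Histone acetyltransferases move an acetyl group from acetyl-CoA onto lysines of the histone tails, and histone deacetylases remove it. EP300 (p300) and CREBBP (CBP) are large coactivators recruited by many transcription factors. KAT2A (GCN5) and KAT2B (PCAF) are the catalytic subunits of the SAGA and ATAC complexes. The MYST enzymes are KAT5 (TIP60) of the NuA4 complex, KAT6A (MOZ) and KAT6B (MORF) with their BRPF scaffolds, KAT7 (HBO1) with JADE or BRPF scaffolds, and KAT8 (MOF) of the MSL and NSL complexes. HAT1 acetylates newly made histone H4 before it is placed on DNA. In myeloid leukemia, KAT6A is known as a fusion partner of CREBBP and EP300, and p300 is known to bind AML1-ETO. The comparison asks whether the mRNAs of the enzymes that add acetyl groups differed when the enzymes that remove them were inhibited.

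The libraries held between 15281052 and 17221345 mapped fragments, recovered from the values themselves. On the first principal component, with 43.3% of the variance of the 4133 genes at a mean of 10 FPKM or more, control replicate 3 and I13 replicate 2 stood apart from the other 4 libraries. The labels give no batch, so the difference of each acetyltransferase gene is also given in the 4 libraries and in this pair. FPKM counts fragments scaled to the exon length of the gene and to the mapped total of the library. The Kasumi-1 markers were present in every library, among them MPO at 10241 FPKM or more, KIT at 196 FPKM or more and RUNX1T1 at 12.5 FPKM or more. Of 8 markers of other cell types, 3 (COL1A1, ALB and PPBP) were listed at 0 in every library, and 7 were at or below 0.371 FPKM. The eighth, the epithelial marker EPCAM, was between 20.8 and 26.5 FPKM. The summed level of the 8 markers was between 21.2 and 26.9 FPKM in the control libraries and between 22.3 and 26.6 FPKM in the I13 libraries. Nearly all of this sum was EPCAM, so it says little about the other 7 markers. In such bulk libraries a lower level in each cell and fewer expressing cells cannot be told apart.

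All 10 acetyltransferase mRNAs were present in every library, and none differed between the I13 and control libraries by the test. By limma on log2(FPKM + 0.1), 0 of the 10 genes had an adjusted p under 0.05 and a log2 fold change of 0.58 or more in either direction, where 0% of the 18726 genes tested did. At an unadjusted p under 0.05 with the same fold, 0 of the 10 were called against 2.38% of all genes, and at an unadjusted p under 0.05 alone, 0 of the 10 against 5.14% (2.59% counting the lower genes only). Voom on the recovered fragments also called 0 of the 10 at an adjusted p under 0.05, and 0 at an unadjusted p under 0.05, where 739 of the 13811 genes it tested (5.35%) had one. The lowest unadjusted p among the 10 was 0.105, for KAT6A. The log2 fold change was below 0 for 8 genes and above 0 for 2, with a median of -0.042, against a median of 0.0058 and 48.2% below 0 over all genes tested. For 9 of the 10 genes the 95% interval of the log2 fold change lay within 0.58 of 0, as it did for 54.1% of all genes tested. KAT2B was the exception. The 54.1% covers genes down to a mean of 0.1 FPKM, and no such share was taken at the levels of the members. The signs of all 10 were the same with median scaling and with quantile normalization of the libraries, and the signs of KAT2A, KAT7, KAT8 and HAT1 turned when single libraries were left out.

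**Figure D1:**
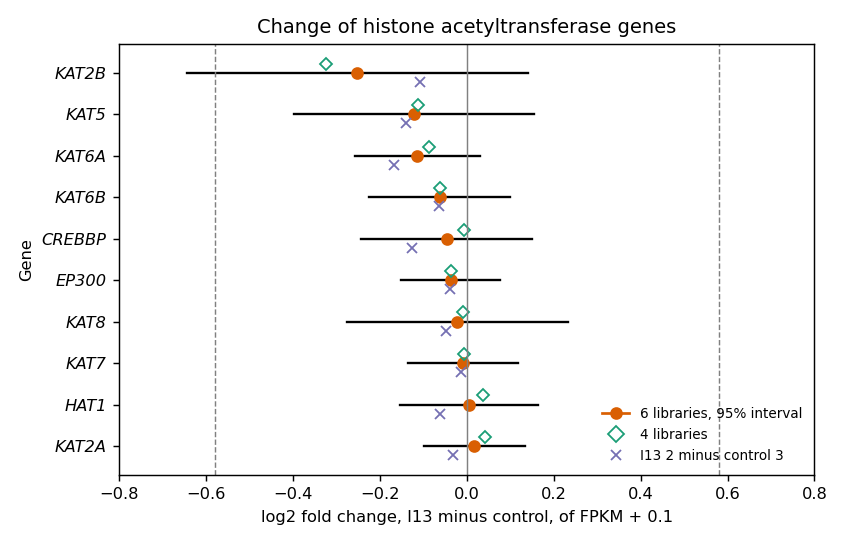
The horizontal axis gives the log2 fold change of FPKM + 0.1, I13 minus control, for each of the 10 genes. Filled circles with lines are the estimate over 6 libraries and its 95% interval, open diamonds the difference within 4 libraries, crosses I13 replicate 2 minus control replicate 3, and dashed lines an absolute log2 fold change of 0.58. Every interval crosses 0, and the interval of KAT2B alone reaches past a dashed line.

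EP300 (ENSG00000100393) lies on chromosome 22 from 41091786 to 41180079. It was at 16.92, 16.84 and 17.03 FPKM in control replicates 1, 2 and 3 and at 15.98, 16.59 and 16.92 FPKM in I13 replicates 1, 2 and 3. I13 replicates 1 and 2 were below every control library and I13 replicate 3 was within their range. On the log2 scale I13 minus control was -0.038 with a standard error of 0.048 and a 95% interval from -0.15 to 0.076 (adjusted p = 1.0 by limma). It was -0.038 in the 4 libraries and -0.038 in the pair. Linear ratios of I13 to control below 0.90 and above 1.05 were outside the 6-library interval. EP300 was the second most abundant of the 10 mRNAs, with between 3181 and 3643 fragments per library, so the counting error was 1.70% of the value. The antisense gene EP300-AS1 overlaps it on the other strand and had a mean of 1.11 FPKM.

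Its paralog CREBBP (ENSG00000005339, chromosome 16 from 3725054 to 3880726) was much lower. It was at 3.61, 4.01 and 4.05 FPKM in control replicates 1, 2 and 3 and at 3.71, 3.70 and 3.87 FPKM in I13 replicates 1, 2 and 3, so all I13 values lay inside the control range. I13 minus control was -0.047 on the log2 scale (standard error 0.084, 95% interval from -0.24 to 0.15). The difference was -0.0067 in the 4 libraries and -0.13 in the pair. The ratio of EP300 to CREBBP was 4.36 ± 0.281 (SD, n = 3) in control and 4.39 ± 0.0860 (SD, n = 3) in I13 libraries. This ratio did not depend on the scaling of a library, and its difference on the log2 scale was 0.010 (exact permutation test, two-sided, p = 1.0, adjusted p = 1.0 over 3 ratios). The sign of this small difference turned without control replicate 2 or 3, without I13 replicate 2 and within the 4 libraries, where it was -0.031.

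KAT2A (ENSG00000108773, chromosome 17 from 42113108 to 42121358) was the most abundant of the 10 mRNAs. Its values were 20.0, 19.3 and 20.8 FPKM in control replicates 1, 2 and 3 and 20.0, 20.3 and 20.4 FPKM in I13 replicates 1, 2 and 3. All 3 I13 libraries were inside the control range. The log2 fold change of 0.017 (standard error 0.049) had a 95% interval from -0.10 to 0.13, which is narrow enough to leave out linear ratios below 0.93 and above 1.10. Its sign differed between the 4 libraries, at 0.041, and the pair, at -0.032.

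KAT2B (ENSG00000114166, chromosome 3 from 20040023 to 20154404), which occupies the same place in SAGA and ATAC as KAT2A, was the least abundant and the most variable of the 10. It was at 1.97, 1.70 and 1.35 FPKM in control replicates 1, 2 and 3 and at 1.43, 1.24 and 1.45 FPKM in I13 replicates 1, 2 and 3. Control replicates 1 and 2 were above every I13 library, while control replicate 3 was below I13 replicates 1 and 3, so the groups overlapped. The coefficient of variation was 18.5% in the control and 8.22% in the I13 libraries, where the counting error of 117 to 191 fragments was 8.40%. Given its log2 fold change of -0.25, a standard error of 0.17 and a 95% interval from -0.64 to 0.14, KAT2B had both the largest difference of the 10 and the widest interval (unadjusted p = 0.172, adjusted p = 0.983 by limma). The difference was -0.32 on the log2 scale in the 4 libraries and -0.11 in the pair. Without control replicate 3 it was -0.39 with an unadjusted p of 0.0432 (adjusted p = 0.765), and without control replicate 1 it was -0.13. As a linear ratio the 6-library interval ran from 0.64 to 1.10. The ratio of KAT2A to KAT2B was 12.3 ± 2.74 (SD, n = 3) in control and 14.8 ± 1.32 (SD, n = 3) in I13 libraries. The difference of 0.29 on the log2 scale gave p = 0.3 by the exact permutation test, two-sided, where 0.1 is the smallest p that 3 libraries against 3 allow, and an adjusted p of 0.45.

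**Figure D2:**
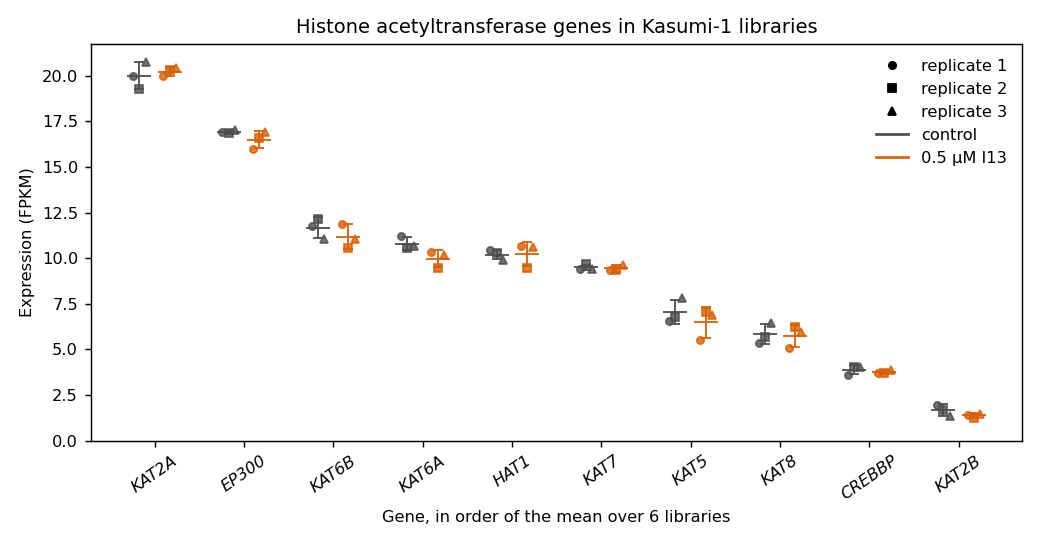
The vertical axis gives FPKM from 0, with 3 control and 3 I13 libraries per gene as points whose shape marks the replicate; horizontal bars are group means and error bars the SD. The genes run from KAT2A, near 20 FPKM, to KAT2B, below 2 FPKM, and the control and I13 points overlap for 9 of the 10 genes.

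KAT6A (ENSG00000083168, chromosome 8 from 41929479 to 42052026) was the 1 gene of the 10 whose groups did not overlap. It was at 11.2, 10.6 and 10.6 FPKM in control replicates 1, 2 and 3 and at 10.3, 9.46 and 10.2 FPKM in I13 replicates 1, 2 and 3. Every I13 library was below every control library, though the lowest control and the highest I13 value were only 10.6 and 10.3 FPKM. Of all genes tested, 9.52% did not overlap, and 4.64% did so with the I13 libraries lower, so 1 of 10 is close to the background. Its log2 fold change of -0.11 had a standard error of 0.061 and a 95% interval from -0.26 to 0.031 (unadjusted p = 0.105, adjusted p = 0.971 by limma). The 4 libraries alone gave -0.087 and the pair -0.17. With a term for the library pair the unadjusted p of KAT6A was 0.0497 by limma (adjusted p = 0.651) and 0.0215 by voom (adjusted p = 0.348). Those fits gave an unadjusted p under 0.05 to 7.62% and 10.3% of the genes they tested.

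KAT6B (ENSG00000156650, chromosome 10 from 74824927 to 75032624) had values of 11.78, 12.17 and 11.04 FPKM in control replicates 1, 2 and 3. In I13 replicates 1, 2 and 3 they were 11.90, 10.55 and 11.05 FPKM. The groups overlapped, and the lowest value of each group was in control replicate 3 and I13 replicate 2. For KAT6B the log2 fold change was -0.063 (standard error 0.069, 95% interval from -0.23 to 0.10), and the 4 libraries and the pair gave -0.062 and -0.065. Unlike the other pairs of paralogs, KAT6A and KAT6B were expressed at similar levels per kilobase, with a ratio of 0.928 ± 0.0520 (SD, n = 3) in control and 0.895 ± 0.0264 (SD, n = 3) in I13 libraries. The difference of that ratio was -0.052 on the log2 scale (exact permutation test, two-sided, p = 0.3, adjusted p = 0.45). The values of these 2 genes came out as whole fragments at exon lengths of 11852 for KAT6A and 13400 for KAT6B, shorter than the 24175 and 32495 bases that GENCODE release 29 gives. For the other 8 genes the GENCODE length gave whole fragments. The level of KAT6A or KAT6B against the others depends on this length, and the change between groups does not.

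KAT7 (ENSG00000136504, chromosome 17 from 49788555 to 49835030) varied least among the 10. It was at 9.41, 9.68 and 9.42 FPKM in control replicates 1, 2 and 3 and at 9.34, 9.34 and 9.65 FPKM in I13 replicates 1, 2 and 3. The coefficient of variation over all 6 libraries was 1.60%, below the counting error of 2.34%. Its log2 fold change was -0.0089 (standard error 0.054, 95% interval from -0.14 to 0.12), with -0.0069 in the 4 libraries and -0.013 in the pair. KAT7 overlaps FAM117A, at a mean of 13.7 FPKM, on the other strand.

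KAT5 (ENSG00000172977, chromosome 11 from 65711996 to 65719604) was at 6.53, 6.79 and 7.80 FPKM in control replicates 1, 2 and 3 and at 5.50, 7.07 and 6.87 FPKM in I13 replicates 1, 2 and 3. I13 replicate 1 was the lowest library and control replicate 3 the highest, with the other 4 between 6.53 and 7.07 FPKM. KAT5 had a log2 fold change of -0.12 (standard error 0.12, 95% interval from -0.40 to 0.15). It was -0.11 in the 4 libraries, -0.14 in the pair, -0.010 without I13 replicate 1 and -0.19 without I13 replicate 2. RNASEH2C, which overlaps KAT5 on the other strand, had a mean of 10.4 FPKM.

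KAT8 (ENSG00000103510, chromosome 16 from 31115754 to 31131393) followed the same order of libraries at its ends. It was at 5.36, 5.69 and 6.45 FPKM in control replicates 1, 2 and 3 and at 5.06, 6.24 and 5.95 FPKM in I13 replicates 1, 2 and 3, with I13 replicate 1 again lowest and control replicate 3 again highest. Its log2 fold change of -0.022 (standard error 0.11, 95% interval from -0.28 to 0.23) became 0.066 without I13 replicate 1 and 0.052 without control replicate 3. In the 4 libraries it was -0.0091 and in the pair -0.047. The spans of AC135050.5 and AC135050.6 overlap that of KAT8 on the same strand, at means of 1.17 and 3.44 FPKM. Whether their exons overlap was not checked, so any effect on the fragments of KAT8 is uncertain.

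HAT1 (ENSG00000128708, chromosome 2 from 171922448 to 171983682) was at 10.4, 10.3 and 9.90 FPKM in control replicates 1, 2 and 3 and at 10.6, 9.48 and 10.6 FPKM in I13 replicates 1, 2 and 3. I13 replicates 1 and 3 were above every control library and I13 replicate 2 was below every one. HAT1 had a log2 fold change of 0.0043 (standard error 0.067, 95% interval from -0.15 to 0.16), made up of 0.038 within the 4 libraries and -0.062 within the pair. SLC25A12 overlaps HAT1 on the other strand with a mean of 6.17 FPKM. The adjusted p-values of all 10 genes were between 0.971 and 1.0 by limma.

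In order of the mean over 6 libraries, the levels per kilobase were 20.1 FPKM for KAT2A, 16.7 for EP300, 11.4 for KAT6B, 10.4 for KAT6A, 10.2 for HAT1, 9.47 for KAT7, 6.76 for KAT5, 5.79 for KAT8, 3.82 for CREBBP and 1.52 for KAT2B. KAT2A was above 89.0% of the genes tested and KAT2B above 44.4%. Among neighbours in this order, KAT6A and HAT1 could not be set apart, since KAT6A was higher in 3 of 6 libraries. KAT6B and KAT6A, HAT1 and KAT7, and KAT5 and KAT8 had overlapping ranges across libraries, although the first of each was higher in 6 of 6 libraries. The remaining neighbours did not overlap. The MYST enzymes together held 46.0% ± 0.359 (SD, n = 3) of the summed FPKM of the 10 genes in control and 45.1% ± 0.259 (SD, n = 3) in I13 libraries. For EP300 with CREBBP the shares were 21.3% ± 0.191 and 21.3% ± 0.319, for KAT2A with KAT2B 22.2% ± 0.512 and 22.8% ± 0.191, and for HAT1 10.5% ± 0.355 and 10.8% ± 0.640 (SD, n = 3 each). The summed FPKM itself was 97.2, 97.0 and 98.5 in control replicates 1, 2 and 3 and 93.9, 94.0 and 96.9 in I13 replicates 1, 2 and 3. The highest I13 sum and the lowest control sum thus lay close together without overlapping. These sums and shares describe the libraries and were not tested.

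Much of the variation of several members lay between libraries of one group. For 9 of the 10 genes, control replicate 3 departed from control replicates 1 and 2 in the same direction as I13 replicate 2 departed from I13 replicates 1 and 3, where 60.5% of all genes tested did so. CREBBP was the exception. The 60.5% covers genes down to a mean of 0.1 FPKM, and no share at the levels of the members was taken. These 2 libraries were picked on the first principal component of the same values. That component took in the members with a mean of 10 FPKM or more, so the agreement was partly built in. KAT5 was higher in these 2 libraries, by 0.22 on the log2 scale in the control and 0.20 in the I13 group, and KAT8 by 0.22 and 0.18. KAT2B was lower, with differences of -0.41 and -0.19, as was KAT6B, with -0.12 and -0.12, and HAT1, with -0.063 and -0.16. These differences were larger than the log2 fold changes between I13 and control for KAT5, KAT8, KAT6B and HAT1. The part of this library pair in the result of any single gene was not tested. Across the 6 libraries the log2 levels of KAT5 and KAT8 had a Pearson correlation of 0.93, the highest of the 45 pairs among the 10 genes, followed by EP300 with KAT5 at 0.84 and KAT2B with KAT6A at 0.82. The lowest was -0.79, for KAT2A with KAT6B. The 6 points share their libraries and depth, so these are descriptions.

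**Figure D3:**
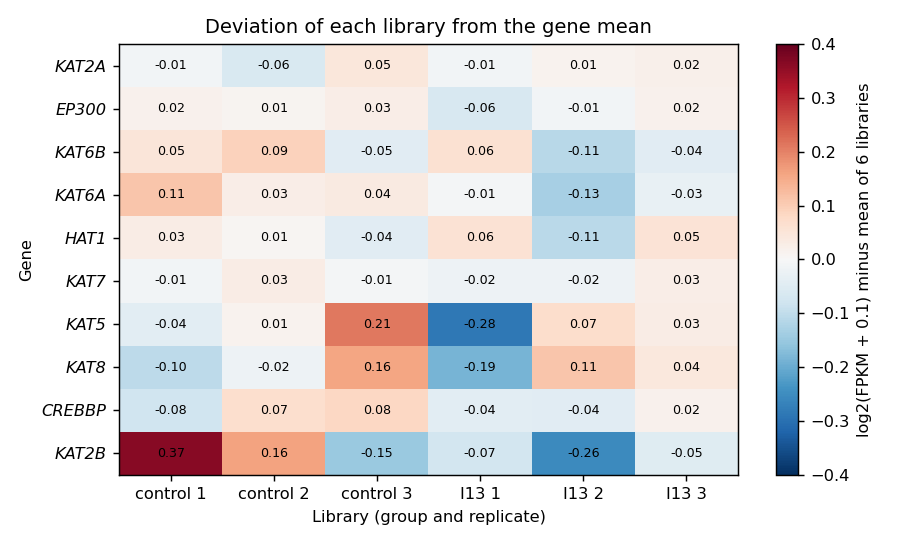
Each cell gives log2(FPKM + 0.1) of a gene in a library minus the mean of that gene over 6 libraries, with red above and blue below the mean. KAT5 and KAT8 are highest in control replicate 3 and lowest in I13 replicate 1, and KAT2B runs from 0.37 in control replicate 1 to -0.26 in I13 replicate 2.

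Among the other 11516 genes with a mean of at least 1 FPKM, those most like EP300 over the 6 libraries were AC020661.1, MYL5 and LRRK1, with Pearson correlations of 0.997, 0.993 and 0.986. A correlation above 0.9 was found for 71 genes. The named genes were picked as the highest of 11516 correlations over 6 points. With so few points and so many genes compared, values this high can arise between unrelated genes. A relation of these genes to EP300 was not tested, and the correlations are descriptions.

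The partner genes of the enzymes were read from the same fit. Lists of complex subunits, other acetyltransferases, p300/CBP partner factors and enzymes of acetyl-CoA supply held 85 different genes, of which 84 were tested. At an adjusted p under 0.05, 0 of the 84 were called by limma and 0 by voom. An unadjusted p under 0.05 was found for 3 of 84 (3.57%), where 5.14% of all genes tested had one. Of the 84, 33 were above 0 and 51 below 0, the median log2 fold change was -0.013, and all 84 intervals lay within 0.58 of 0. The groups did not overlap for 5 of the 84, beside the 9.52% of all genes given above.

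The SAGA and ATAC list, which holds the partners of KAT2A and KAT2B, had 24 genes tested, with a median of -0.041 on the log2 scale. Of these, 8 were above and 16 below 0, where 48.2% of all genes tested were below 0. An unadjusted p under 0.05 was found for 2 of the 24 (8.33%), beside 5.14% of all genes tested. The groups did not overlap for 3 of the 24, beside 9.52% of all genes tested. TADA3, an adaptor that both complexes use to hold the acetyltransferase, was at 13.2, 13.1 and 13.7 FPKM in control replicates 1, 2 and 3 and at 10.6, 12.8 and 11.2 FPKM in I13 replicates 1, 2 and 3. Every I13 library was below every control library. For TADA3 the difference was -0.21 on the log2 scale (standard error 0.080, 95% interval from -0.40 to -0.024, unadjusted p = 0.0321, adjusted p = 0.947 by limma), -0.27 in the 4 libraries and -0.093 in the pair. TAF12, a histone-fold subunit that SAGA shares with TFIID, was at 10.7, 9.20 and 10.7 FPKM in control replicates 1, 2 and 3 and at 9.14, 8.85 and 8.51 FPKM in I13 replicates 1, 2 and 3. Its groups did not overlap either, with 9.20 FPKM in control replicate 2 next to 9.14 FPKM in I13 replicate 1. For TAF12 the difference was -0.20 on the log2 scale (standard error 0.077, 95% interval from -0.38 to -0.018, unadjusted p = 0.0356, adjusted p = 0.947 by limma). It was -0.17 in the 4 libraries, where the unadjusted p was 0.170 (adjusted p = 0.708), and -0.27 in the pair.

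CITED2, which binds p300 and CBP and limits the access of other factors to them, was at 114.9, 113.4 and 106.7 FPKM in control replicates 1, 2 and 3. In I13 replicates 1, 2 and 3 it was at 102.2, 105.2 and 96.7 FPKM, so the groups did not overlap. For CITED2 the difference was -0.14 on the log2 scale (standard error 0.052, 95% interval from -0.26 to -0.017, unadjusted p = 0.0307, adjusted p = 0.947 by limma), -0.20 in the 4 libraries and -0.020 in the pair. The list of p300/CBP partners had 8 genes tested, 2 above and 6 below 0. CITED2 alone had an unadjusted p under 0.05, 1 of 8 (12.5%) beside 5.14% of all genes tested. With median scaling of the libraries, and with limma without a variance trend, none of TADA3, TAF12 and CITED2 had an unadjusted p under 0.05. By voom TAF12 had none. With 1 library left out, TADA3 had one only without I13 replicate 2, TAF12 only without control replicate 2, and CITED2 only without control replicate 3 or I13 replicate 2.

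In the other 6 lists 0 genes had an unadjusted p under 0.05 by limma. The NuA4 list around KAT5 had 17 genes tested, 5 above and 12 below 0, and its median was -0.0025 on the log2 scale. By limma, the lowest p-values there were those of ACTL6A, an actin-related subunit, with a log2 fold change of 0.097 (unadjusted p = 0.0828, adjusted p = 0.954), and ING3, a reader of methylated histone H3, with -0.25 (unadjusted p = 0.106, adjusted p = 0.976). By voom the unadjusted p of ING3 was 0.0493 (adjusted p = 0.931). For ACTL6A every I13 library, at 19.1 FPKM or more, was above every control library, at 18.7 FPKM or less. The groups did not overlap for 2 of the 17 genes, beside 9.52% of all genes tested. The list of MOZ/MORF and HBO1 subunits had 9 genes tested, 4 above and 5 below 0, with a median of -0.017. Its lowest p-values were those of the scaffolds BRD1 (log2 fold change -0.074) and JADE3 (-0.11). Of the 11 MSL and NSL subunits, 4 were above and 7 below 0, and the scaffold KANSL1 (-0.076) and MSL2 (-0.073) had the lowest p-values. For HAT1, 4 of 5 partners and histone chaperones were above 0 with a median of 0.072, led by RBBP7, the histone-binding subunit of the HAT1 complex (0.086), and the chaperone ASF1B (0.13). Of 10 other acetyltransferases, 5 were above and 5 below 0, and NCOA3 (0.11) and ELP3 (-0.067) had the lowest p-values. The 4 genes of acetyl-CoA supply were 2 above and 2 below 0. ACSS2, which makes acetyl-CoA from acetate, had a log2 fold change of -0.19 (unadjusted p = 0.111, adjusted p = 0.979 by limma), with -0.32 in the 4 libraries and 0.067 in the pair, and ACSS1 had 0.058.

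**Figure D4:**
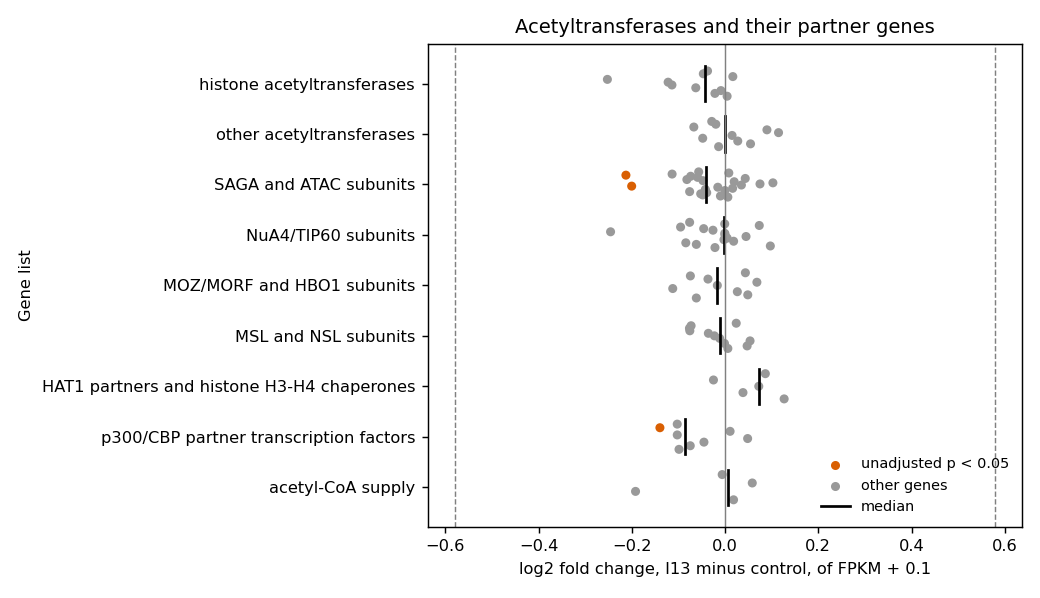
Each point is 1 gene, placed by its log2 fold change of FPKM + 0.1, I13 minus control, with a row for the 10 acetyltransferases and for each of 8 partner lists. Vertical bars are list medians, orange points have an unadjusted p under 0.05 by limma (TADA3, TAF12 and CITED2), and all points lie between the dashed lines at an absolute log2 fold change of 0.58.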

How the data were processed

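Total RNA of 6 Kasumi-1 libraries was made into libraries with a TruSeq Stranded mRNA kit per the labels. The values are gene-level FPKM as the authors deposited them. The submitters' processing notes name hg38, Trimmomatic, HISAT2, Cufflinks and HTSeq; their roles, the sources used here do not give the annotation or the strand setting. Without that setting, reads from stretches that genes on opposite strands share cannot be told apart. Overlaps of genes were read from their spans, not from their exons. Symbols, coordinates (GRCh38) and exon lengths came from GENCODE release 29, which names 32244 of 32364 genes. Fragments were recovered as whole multiples within a tolerance of 0.01, in all 6 libraries for 25770 of 27002 genes above 0 (95.4%) at the GENCODE length, and for a further 1322 at the shortest length that made all values whole.

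The groups were compared on log2(FPKM + 0.1), a scale that understates changes of low genes, by limma 3.58.1 (R 4.3.3) with a variance trend, for 18726 genes averaging 0.1 FPKM or more and with Benjamini-Hochberg adjustment over all of them. Thresholds were a p under 0.05 and an absolute log2 fold change of 0.58, from the study. The study, which names no test, reported both lower and higher genes at its thresholds. The limma fit used here called 0 of the 18726 genes at an adjusted p under 0.05 with that fold. Not being called by it therefore does not set a member apart from other genes, and does not show that the member was unchanged. Limma's voom used genes with a mean of at least 10 recovered fragments. The script was tested on simulated data. Ratios were compared by exact permutation in scipy 1.17.1. Members and lists were chosen with earlier results of these data known, so no p was adjusted over a list. All 10 members are described; partner genes are named by an unadjusted p under 0.05, or else as the 2 lowest p-values of a list, and the 3 genes most like EP300 by correlation. The alternatives changed the pseudocount to 1 or 0.01, dropped the filter or set it to 1 FPKM, or used median scaling, quantile normalization, no trend, robust variances, a replicate block, a term for control replicate 3 with I13 replicate 2 or both left out, each library left out, and voom. Voom with the pair term was added after the values had been seen. The pair itself was picked from these values, on the first principal component, for every setting that uses it. Counting errors are 1 over the square root of the mean fragments and cover counting only. ZZZ3 and MS4A1, which were on the lists, were not analysed here.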

Additional observations from a re-analysis of the deposited data

How the results depend on the processing

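Over 19 alternatives, 0 of 190 fits of the 10 genes gave an adjusted p under 0.05, and the lowest was 0.348. Most of these fits called no gene at all by the adjusted p and fold. The exceptions were limma without a trend, with 9 of all genes, voom with 4, and voom with the pair term with 15. The 0 of 190 is thus near what all genes gave. The sign turned in 7 fits, all with 1 library left out, where the log2 fold changes ranged from -0.0092 to 0.044 for KAT2A, -0.024 to 0.0042 for KAT7, -0.083 to 0.066 for KAT8 and -0.024 to 0.059 for HAT1. Without control replicate 2 it was -0.0092 for KAT2A and 0.0042 for KAT7. For KAT8 it was 0.052 without control replicate 3 and 0.066 without I13 replicate 1. For HAT1 it was -0.017 without control replicate 3, -0.024 without I13 replicate 1 and -0.022 without I13 replicate 3. The difference in the log2 ratio of EP300 to CREBBP was -0.031 with control replicate 3 and I13 replicate 2 both left out and -0.017 to 0.063 with 1 library left out. The count of the 10 genes with an unadjusted p under 0.05 was 1 with a term for the library pair, 1 with voom and that term, and 0 to 1 with 1 library left out (KAT2B, without control replicate 3). Of all genes tested, 7.62%, 10.3% and 6.42% had one in these 3 fits, against 5.14%.

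Over the partner lists that count, 3 by the main test, was 0 with median scaling, 0 without a trend, 1 with the replicate block (CITED2), 6 with the library pair left out, 6 with its term, 7 with voom and that term, and 0 to 5 with 1 library left out, 0 without control replicate 1 or I13 replicate 1. With the pair left out 8.58% of all genes had one. Over all genes, the adjusted p and fold called 9 genes without a trend, 4 by voom and 15 by voom with the pair term. The unadjusted p and fold called 134 with a pseudocount of 1, 119 with a minimum of 1 FPKM, 204 by voom and 203 by voom with the pair term, against 445. The unadjusted p alone called 582 with a minimum of 1 FPKM and 1607 with the library pair left out, against 963, with 1427 for the pair term, 739 for voom and 1417 for voom with that term. With a minimum of 1 FPKM 11517 genes were tested in place of 18726, and the 582 were 5.05% of them. The causes of these differences were not tested.

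Whether libraries of the same number belong together was looked at by correlation. Deviations from the group means correlated at 0.083, -0.070 and -0.017 between libraries numbered 1, 2 and 3. Among differently numbered libraries, control replicate 2 with I13 replicate 3 gave 0.085 and control replicate 3 with I13 replicate 2 gave 0.072. The remaining such correlations were negative. The deviations within a group sum to 0 for each gene, so positive and negative values have to occur together. These correlations therefore cannot settle which libraries were paired. With the replicate block 862 genes had an unadjusted p under 0.05 by limma, with 0 of the 10 acetyltransferase genes. KAT2B had the fewest fragments of the 10 genes, 117 to 191 per library, and the largest counting error, 8.40%. Its coefficient of variation in the control libraries was larger, at 18.5%. The part of depth in its wide interval was not tested.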
